A study of Mus musculus with 6 samples.

Results

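The genes described here are 32 transcripts that mark long-term haematopoietic stem cells (LT-HSCs), the rare marrow cells that rebuild blood for life, or that sustain their self-renewal. They were listed by name from published knowledge of the cell type, with earlier results of these data known. Each matched 1 row among the 21761 genes of the count table. All 32 passed the filter on low counts, which left 12807 genes in the test, and each had reads in every library, with the lowest value, 58 reads, for Robo4 in the library Control 2. The study asked what changes in adult stem cells when IMP1, an RNA-binding protein and the product of Igf2bp1, is made again.

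Both groups were donor cells from transplanted marrow, at 3 libraries each. The Control donors had the genotype Rosa26 +/+;Mx1-Cre tg/+ and the IMP1 donors Rosa26 I/+;Mx1-Cre tg/+, so that both carried the Cre transgene, whose promoter answers to interferon, and only the latter carried the conditional knock-in of IMP1. Marrow of either kind went into lethally irradiated hosts, poly(I:C) was injected to induce Cre, and 200 cells per library with the phenotype CD45.2+ LSK CD150+ CD48- CD34- were sorted 8 weeks after the last injection. The hosts were CD45.1/2 animals and so carry CD45.2 as well, and the labels name no further marker by which residual host cells were set aside. Ages were not given, and the labels call the libraries biological replicates without saying which animals they came from, so that p-values measure the spread between these libraries. Totals were 25749898 to 27338450 reads in Control and 50220629 to 67083116 in IMP1 libraries, on average 2.26 times as many, so that depth and genotype went together and no label separates them. As a check of the genotypes, Igf2bp1 had 0, 0 and 1 reads in Control and 1870, 2084 and 2016 reads in IMP1 libraries.

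LT-HSCs are recognised by surface proteins such as SCA-1, CD150, EPCR and TIE2, several of which they share with the endothelium from which they arise in the embryo. Their identity is held by a dense set of transcription factors, in which SCL, LYL1 and LMO2 form a DNA-bound complex with GATA2 and act beside the ETS factors ERG and FLI1 and with RUNX1. Other regulators, among them MECOM, PRDM16, HLF and AF9, are needed for self-renewal, while GFI1 and GFI1B restrain entry into the cell cycle and differentiation.

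Levels are given as CPM, the reads of a gene over the library's total after trimmed mean of M values (TMM) scaling, times 1e6. No member passed an adjusted p of 0.05 in edgeR's quasi-likelihood test of IMP1 against Control cells (0 of 32, with 0.211% of all genes called in either direction, 0.0703% higher and 0.141% lower). Every difference of a member described below is therefore one that did not pass over all genes in this test. Before adjustment, 7 members were higher and 2 lower in IMP1 cells at a p under 0.05, or 28.1% of the 32, where 14.3% of all genes reached it, 6.67% higher and 7.63% lower. DESeq2 called 4 members, or 12.5%, against 6.7% of all genes, of which 2.96% were higher and 3.74% lower. They were Mllt3, Trpc6 and Vwf higher and Esam lower. limma-voom called 0 members. The log2 fold change was positive for 23 of the 32 members, with a median of 0.22, while it was positive for 52.2% of all genes, with a median of 0.03. Among all genes tested 27 passed, 9 higher and 18 lower, and 0 to 2 passed when any 1 of the 6 libraries was left out. The split of the calls moved to 9 higher and 7 lower without TMM scaling and to 6 and 6 with a trend on transcript length and GC content removed.

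For 8 members, or 25%, every IMP1 library lay on the same side of every Control library, which is near the 21.9% of all genes for which this was so. Of these, 5 were higher in IMP1 cells (10.7% of all genes were), namely Mllt3, Trpc6, Vwf, Ctnnal1 and Fgd5, and 3 were lower (11.1% of all genes were), namely Esam, Gfi1b and Pdzk1ip1. Without Control 3 or without IMP1 1 there were 13 such members, or 40.6%, where 31.9% and 32.9% of all genes were so in the same settings, since a group of 2 libraries overlaps less often. For 13 members the fitted difference was under 0.2 on the log2 scale. Fewer cells that hold a transcript and less of it per cell cannot be told apart in these pooled libraries.

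**Figure D1:**
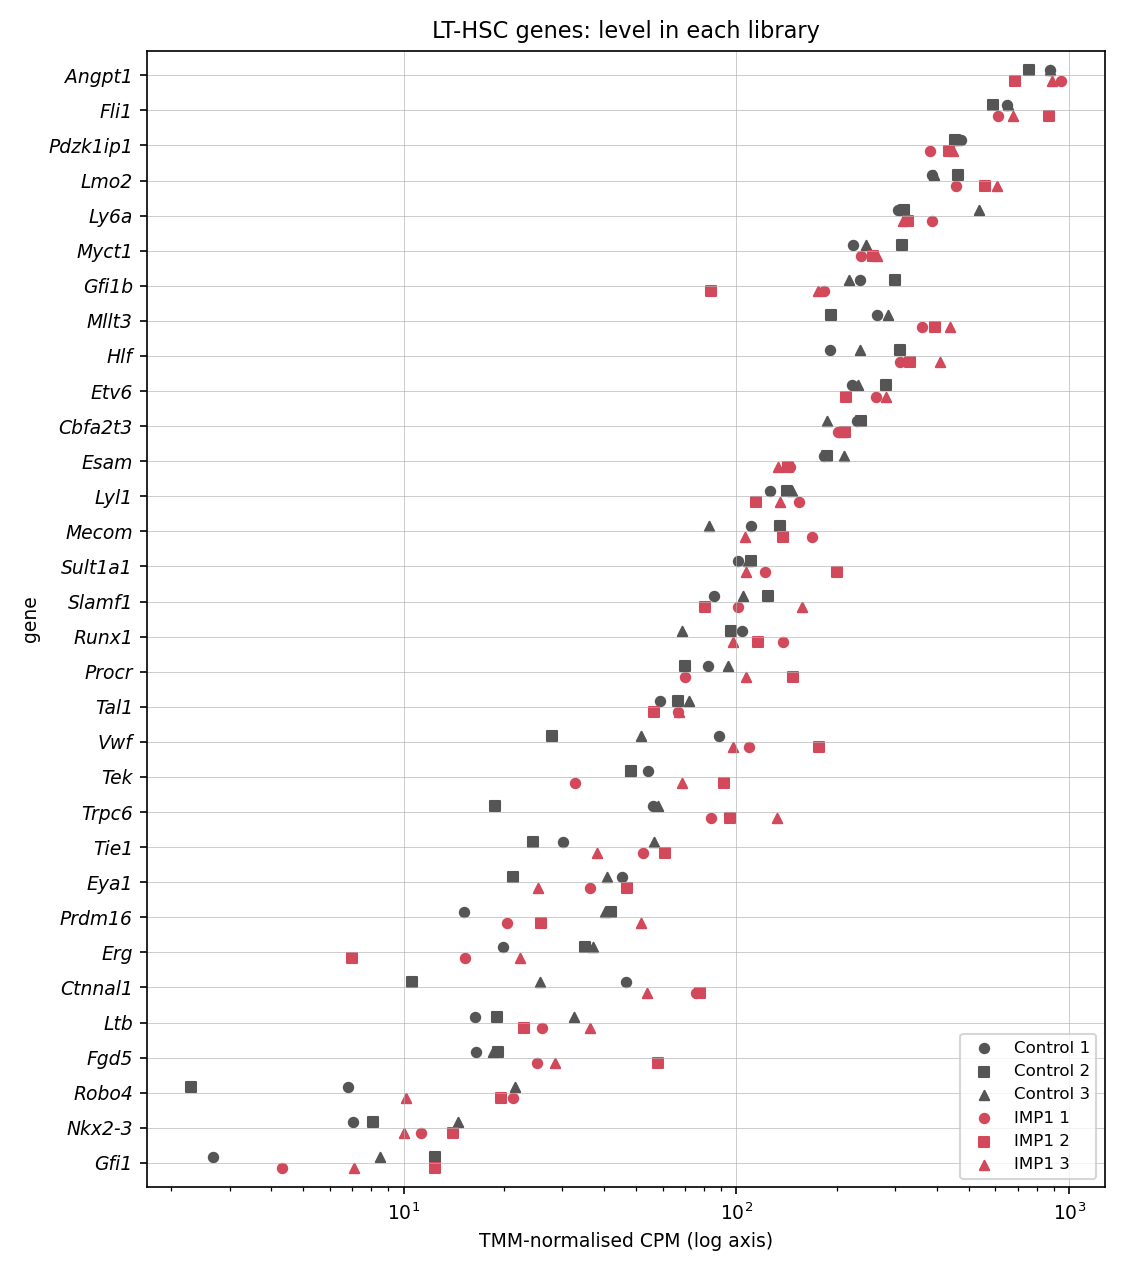
Level of each of the 32 genes in each library, as TMM-normalised CPM on a log axis, with genes ordered by their mean in Control. Grey symbols are the 3 Control and red symbols the 3 IMP1 libraries, with 1 marker shape per replicate number. Angpt1 and Fli1 stand at the top and Gfi1 at the bottom in both groups, and for most genes red and grey symbols lie over one another.

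To compare genes with one another, reads were divided by the length of a gene's longest transcript in the annotation and scaled to the same sum in every library (transcripts per 1e6, TPM), a description that depends on that transcript being the one present. On this scale Control levels ran over a 197-fold range. Pdzk1ip1, which encodes the small membrane protein MAP17, led at 777 ± 32.6 TPM (SD, n = 3), followed by Ly6a at 772 ± 252 TPM, which do not differ beyond their spread. Lmo2 followed at 463 ± 41.8 TPM, Angpt1 at 375 ± 35.4 TPM and Fli1 at 364 ± 25.03 TPM, of which the last pair do not differ beyond their spread either. The lower end was taken by Fgd5 at 5.66 ± 0.354 TPM, Gfi1 at 5.22 ± 3.21 TPM and Robo4 at 3.95 ± 3.87 TPM. Over all libraries 30 of the 32 members lay above the median of genes with a read, 6.65 TPM, the exceptions being Gfi1 and Robo4. In IMP1 cells Pdzk1ip1 (792 ± 69.0 TPM), Ly6a (764 ± 83.5 TPM) and Lmo2 (674 ± 99.3 TPM) were again the 3 highest, and Gfi1 was the lowest (5.89 ± 3.01 TPM). The median member stood at 40.95 TPM in Control.

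Among the surface and signalling genes, 9 of 11 had positive fold changes, with a median of 0.36 on the log2 scale. Ly6a and Slamf1 encode the proteins SCA-1 and CD150 for which the cells were sorted, so their presence is set by the gate. Ly6a stood at 306, 318 and 536 CPM in Control and 387, 328 and 315.5 CPM in IMP1 libraries, which overlap, with Control 3 above all others. Slamf1 stood at 85.3, 124 and 104 CPM in Control and 101, 80.5 and 157 CPM in IMP1 libraries (log2 fold change 0.11, SE 0.26). Of the other genes of the gate, some mark what was selected and some what was gated out. Kit, the stem cell factor receptor, was abundant at 415 ± 54.2 and 505 ± 90.8 CPM (SD, n = 3), and Ptprc, which encodes CD45, stood at 272 ± 42.1 and 334 ± 63.7 CPM. Cd48, against which the cells were gated, was low at 7.62 ± 9.13 and 12.7 ± 12.5 CPM. Cd34, whose protein was also gated against, was present as mRNA at 263, 317 and 270.0 CPM in Control and 213, 141 and 151 CPM in IMP1 libraries, which do not overlap (log2 fold change −0.75, SE 0.17, edgeR adjusted p = 0.1097, DESeq2 adjusted p = 0.00193).

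Trpc6, which encodes a calcium-permeable cation channel, stood at 56.1, 18.8 and 58.0 CPM in Control and 83.8, 95.6 and 132 CPM in IMP1 libraries. Every IMP1 library was above every Control library, with Control 2 far below the other two. The fitted log2 fold change was 1.23 (SE 0.41, edgeR adjusted p = 0.237, DESeq2 adjusted p = 0.0304), and 0.86 without Control 2. Vwf encodes von Willebrand factor, the adhesive protein of platelets and endothelium that marks platelet-biased stem cells in mice. It stood at 88.5, 27.9 and 51.5 CPM in Control and 109, 177 and 97.5 CPM in IMP1 libraries, again with all IMP1 values above all Control values. Its log2 fold change was 1.19 (SE 0.41, edgeR adjusted p = 0.2505, DESeq2 adjusted p = 0.0369), and 0.87 without Control 2 or 0.88 without IMP1 2.

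Esam, an adhesion molecule of endothelial tight junctions that LT-HSCs also carry, was the surface gene whose IMP1 libraries all lay below Control. It stood at 183, 188 and 209.8 CPM in Control and 145, 143 and 133 CPM in IMP1 libraries. The libraries of either group lay close together, and the groups did not overlap. The log2 fold change was −0.46 (SE 0.12, edgeR adjusted p = 0.1365, DESeq2 adjusted p = 0.00379), and it shrank to −0.26 (edgeR adjusted p = 0.430) when a trend on transcript length and GC content was removed from each library.

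No gene of the angiopoietin axis among the members passed the test. Angpt1, the ligand of TIE2, stood at 876, 755 and 877 CPM in Control and 946, 687 and 887 CPM in IMP1 libraries, with overlap throughout (log2 fold change 0.01, SE 0.13, edgeR adjusted p = 0.989). Tek, which encodes TIE2, stood at 54.2, 48.2 and 48.0 CPM in Control, a narrow range, and at 32.6, 91.75 and 68.8 CPM in IMP1 libraries, which lay on both sides of it. Its log2 fold change of 0.36 (SE 0.34) became 0.02 without IMP1 2. Tie1, the related receptor that pairs with TIE2, stood at 37.1 ± 17.1 and 50.6 ± 11.6 CPM (log2 fold change 0.45, SE 0.35). Per length, Tek made up 56.6% ± 11.3 of the 2 receptors' transcripts in Control and 52.0% ± 13.9 in IMP1 cells (SD, n = 3), with overlapping libraries. Procr, the protein C receptor EPCR that marks the most potent mouse LT-HSCs, stood at 82.0, 70.2 and 94.6 CPM in Control and 70.1, 148 and 107 CPM in IMP1 libraries. The high value was that of IMP1 2, without which the log2 fold change went from 0.40 to 0.10. Robo4, a roundabout receptor with a part in HSC lodging in the marrow, was low and uneven, at 6.80, 2.295 and 21.7 CPM in Control and 21.4, 19.6 and 10.2 CPM in IMP1 libraries. Ltb, which encodes the cytokine lymphotoxin beta, stood at 22.6 ± 8.63 and 28.5 ± 6.91 CPM (log2 fold change 0.33, SE 0.35).

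Of the 5 intracellular or small membrane markers, Ctnnal1 and Fgd5 were higher and Pdzk1ip1 lower without overlap. Ctnnal1, which encodes alpha-catulin and marks HSCs in reporter mice, stood at 46.6, 10.6 and 25.7 CPM in Control and 75.7, 77.6 and 53.7 CPM in IMP1 libraries. The Control values were spread over 4.41-fold, with Control 2 the lowest, while the IMP1 values lay within 1.44-fold. The log2 fold change was 1.32 (SE 0.47, edgeR adjusted p = 0.271, DESeq2 adjusted p = 0.0549), and 0.93 without Control 2. Fgd5, an exchange factor for the GTPase CDC42 whose locus drives a reporter of LT-HSCs, stood at 16.5, 19.2 and 18.6 CPM in Control and 25.1, 58.0 and 28.4 CPM in IMP1 libraries. Here the Control values were tight and IMP1 2 stood far above the other IMP1 libraries, and the log2 fold change of 1.04 (SE 0.36, edgeR adjusted p = 0.254) was 0.57 without it. Pdzk1ip1 stood at 472, 452 and 453 CPM in Control and 382, 434 and 447.5 CPM in IMP1 libraries, a small separation (log2 fold change −0.12, SE 0.10, edgeR adjusted p = 0.624) whose sign turned to 0.09 with the length and GC trend removed. Sult1a1, a phenol sulfotransferase, stood at 101, 111 and 108 CPM in Control and 122, 200.0 and 107 CPM in IMP1 libraries, where IMP1 2 again stood out and the log2 fold change went from 0.42 to 0.10 without it. Its span overlaps Slx1b in the reference annotation, and reads of both cannot be told apart without strand. Myct1, a target of MYC found in HSCs and endothelium, stood at 261 ± 47.6 and 253 ± 15.0 CPM.

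**Figure D2:**
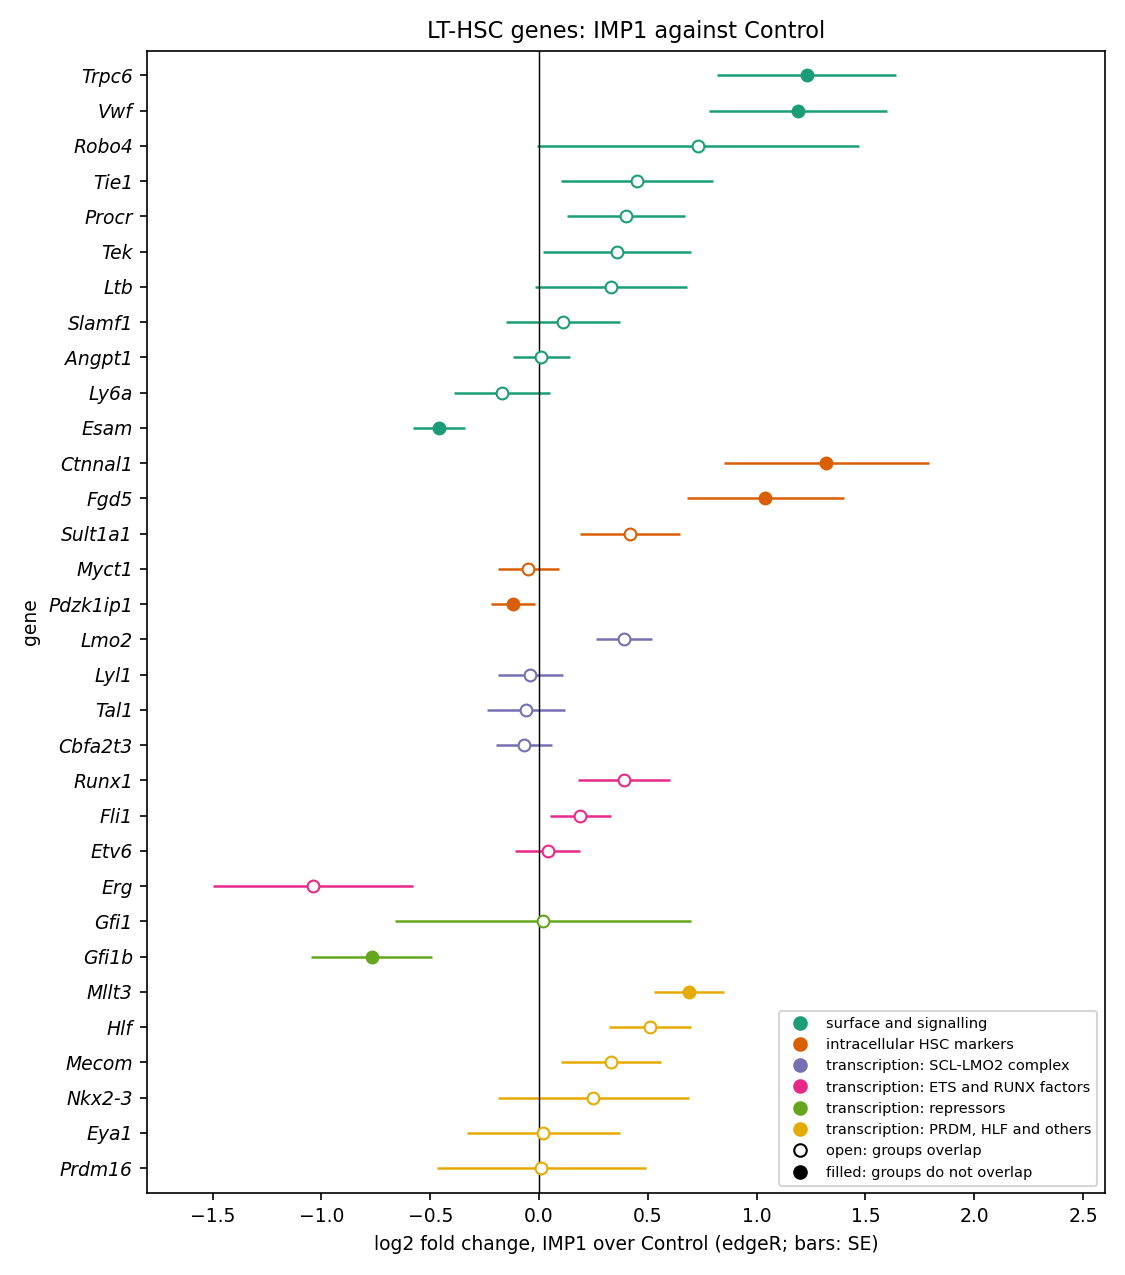
Log2 fold change of each gene, IMP1 over Control, from edgeR, with its standard error as a bar and colours for the role of the gene. Filled points mark the 8 genes whose groups do not overlap. The 4 genes of the SCL-LMO2 complex lie near 0 except Lmo2 at 0.39, while Ctnnal1, Trpc6, Vwf and Fgd5 lie above 1 and Erg lies below −1.

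Transcriptional regulators, 16 of the 32 members, had a median log2 fold change of 0.03 against 0.38 for the other 16. Libraries of the 2 genotypes did not overlap for 2 of the regulators and 6 of the others, where this was so for 21.9% of all genes. The difference between these groups of genes was not tested. Within the SCL-LMO2 complex the levels were close. Tal1, which encodes SCL, stood at 58.95, 66.6 and 72.1 CPM in Control and 66.8, 56.3 and 67.1 CPM in IMP1 libraries (log2 fold change −0.06, SE 0.18). Lyl1, its basic helix-loop-helix relative, stood at 126.5, 142 and 147 CPM in Control and 154, 114 and 135 CPM in IMP1 libraries, and the corepressor gene Cbfa2t3 (ETO2) at 218 ± 27.3 and 207 ± 5.35 CPM. These 3 small negative differences turned positive without TMM scaling (0.04, 0.05 and 0.02 on the log2 scale). Per length, Tal1 made up 16.9% ± 0.411 of the Tal1 and Lyl1 transcripts in Control and 16.8% ± 1.06 in IMP1 cells (SD, n = 3). Lyl1 overlaps Nfix in the reference annotation, so its reads may be shared. Lmo2, the LIM-only protein that bridges the complex, stood at 387, 462 and 393 CPM in Control and 457, 559 and 608 CPM in IMP1 libraries, where a single pair of values, Control 2 and IMP1 1, crossed by a small margin (log2 fold change 0.39, SE 0.13, unadjusted p = 0.0174, edgeR adjusted p = 0.244).

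The ETS and RUNX factors had fold changes of both signs. Erg, an ETS factor needed for HSC maintenance, stood at 19.9, 35.0 and 37.1 CPM in Control and 15.3, 7.01 and 22.4 CPM in IMP1 libraries, with IMP1 3 above Control 1 (log2 fold change −1.04, SE 0.46, edgeR adjusted p = 0.362). Fli1, its close relative, stood at 652, 589.5 and 654 CPM in Control and 611, 870.5 and 677 CPM in IMP1 libraries (log2 fold change 0.19, SE 0.14), which overlap. Erg thus made up 4.74% ± 1.49 of the transcripts of the pair per length in Control and 2.19% ± 1.25 in IMP1 cells (SD, n = 3), with overlapping libraries and the lowest share, 0.816%, in IMP1 2. Runx1, the core binding factor subunit that founds definitive blood, stood at 104, 96.5 and 68.6 CPM in Control and 138, 116 and 97.6 CPM in IMP1 libraries (log2 fold change 0.39, SE 0.21, edgeR adjusted p = 0.457). Etv6 (TEL), an ETS repressor required for HSC survival in the adult marrow, stood at 245 ± 32.3 and 252 ± 35.2 CPM.

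Gfi1b and Gfi1 encode zinc finger repressors that share a SNAG domain. Gfi1b stood at 235, 299.9 and 217 CPM in Control and 183, 83.6 and 175 CPM in IMP1 libraries, all below every Control library. IMP1 2 was the lowest by far, and the log2 fold change of −0.77 (SE 0.28, edgeR adjusted p = 0.283, DESeq2 adjusted p = 0.0716) was −0.49 without it. Gfi1 was scarce and varied within groups more than between them, at 2.67, 12.4 and 8.49 CPM in Control and 4.32, 12.4 and 7.09 CPM in IMP1 libraries. IMP1 2, the library lowest in Gfi1b, was the highest in Gfi1 among IMP1 libraries, so that Gfi1 made up 8.66% of the pair per length there against 1.48% and 2.51% in the other IMP1 libraries and 0.719% to 2.57% in Control.

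The remaining 6 regulators had positive fold changes in this fit, of which those of Prdm16 (0.01) and Eya1 (0.02) turned negative under some alternatives (lowest −0.48 and −0.25), and they included the member with the lowest p. Mllt3 encodes AF9, a YEATS-domain reader of acylated histones that maintains self-renewal in human HSCs. It stood at 264, 192 and 285 CPM in Control and 360.4, 395 and 439 CPM in IMP1 libraries, which do not overlap, so that it was higher in 3 of 3 IMP1 libraries than in any Control library. The means were 247 ± 49.0 and 398 ± 39.6 CPM (SD, n = 3) and the log2 fold change 0.69 (SE 0.16, unadjusted p = 0.00263, edgeR adjusted p = 0.1115, DESeq2 adjusted p = 0.00215). Over 16 refits the log2 fold change lay between 0.44 and 0.80, and the lowest value came with the length and GC trend removed (edgeR adjusted p = 0.349). The 6069-base length of its longest transcript puts it among the long ones of the set. Hlf, a PAR bZIP factor that keeps HSCs quiescent, stood at 191, 311 and 235 CPM in Control and 309, 332 and 408 CPM in IMP1 libraries, with Control 2 just above IMP1 1 (log2 fold change 0.51, SE 0.19, unadjusted p = 0.0275, edgeR adjusted p = 0.284).

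Mecom, which encodes the zinc finger protein EVI1, stood at 110.4, 135 and 82.8 CPM in Control and 169, 138 and 106 CPM in IMP1 libraries (log2 fold change 0.33, SE 0.23, edgeR adjusted p = 0.57). Its relative Prdm16 varied 2.77-fold within Control and 2.52-fold within IMP1 libraries, at 32.4 ± 15.0 and 32.7 ± 16.6 CPM. Mecom made up 83.4% ± 8.01 of the pair per length in Control and 85.7% ± 8.93 in IMP1 cells (SD, n = 3). Nkx2-3, an NK-type homeobox factor, stood at 9.90 ± 4.08 and 11.8 ± 2.08 CPM, and Eya1, a transcriptional coactivator with phosphatase activity, at 35.8 ± 12.8 and 36.3 ± 10.8 CPM, both with overlapping libraries.

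Much of the variation among the 32 genes lay between libraries of the same group. Control 2 was the library farthest from its group mean for 13 members, below it for 8 of them, a share of 40.6% where it was 36.7% over all genes tested. IMP1 3 was farthest in its group for 13 members too, against 32.01% over all genes. The members that were lowest in Control 2 by 1 log2 unit or more against the mean of all 6 libraries were Robo4 (−2.19), Ctnnal1 (−1.91), Trpc6 (−1.75) and Vwf (−1.49), of which the last 3 are among the genes with the largest fold changes. IMP1 2 was high for Fgd5 (1.21) and Vwf (1.17) and low for Erg (−1.50) and Gfi1b (−1.15) on the same scale. The standard deviation of log2 CPM within a group was 0.29 in Control and 0.32 in IMP1 cells for the median member. It was smallest in Control for Pdzk1ip1 (0.03) and Sult1a1 (0.07) and in IMP1 cells for Cbfa2t3 (0.04) and Esam (0.06), and largest in Control for Robo4 (1.61), Gfi1 (1.15) and Ctnnal1 (1.07). The summed level of the 32 genes was 5315 to 5654 CPM in Control and 5814 to 6204 CPM in IMP1 libraries.

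**Figure D3:**
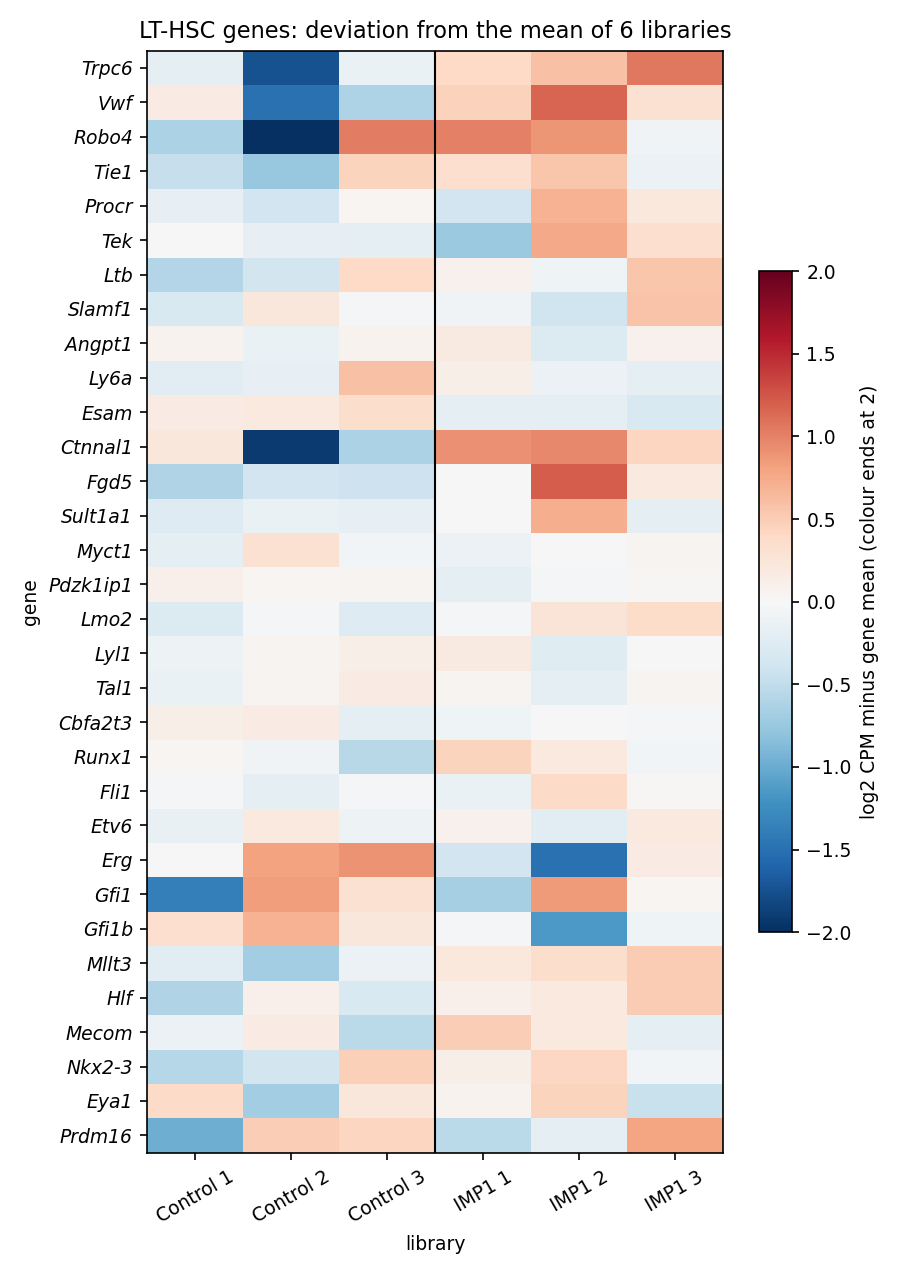
Log2 CPM of each gene in each library minus the mean of that gene over all 6 libraries, with red for higher and blue for lower values, and a line between the groups. Control 2 is dark blue for Robo4, Ctnnal1, Trpc6 and Vwf, and IMP1 2 is red for Fgd5 and Vwf and blue for Erg and Gfi1b.

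The longest transcripts of the 32 genes had a median of 4004 bases, against 3330 for all genes tested. With a smooth trend on length and GC content removed from each library, the median log2 fold change of the members was 0.14 against 0.02 over all genes, 21 of 32 were positive, and 0 passed. With all libraries thinned to the smallest total the median was 0.21.

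**Figure D4:**
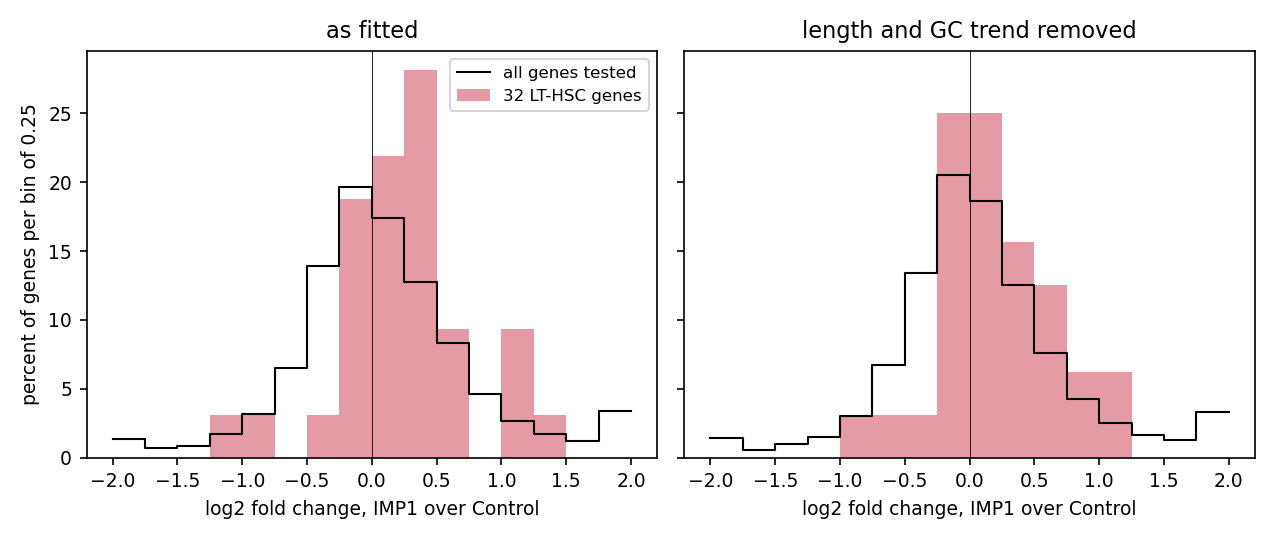
Distribution of log2 fold changes, IMP1 over Control, for the 32 genes (red bars) and all genes tested (black line), as percent of genes per bin of 0.25, with values beyond 2 in either direction placed in the end bins. The left panel is the edgeR fit, where 28.1% of the members lie between 0.25 and 0.5 against 12.7% of all genes, and the right panel is the fit with the length and GC trend removed, where that bin holds 15.6% of the members.

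Promoters were looked at for the letters bound by the factors of the set, since GATA, ETS, E-box and RUNX factors act together in HSCs. RefSeq promoters on GRCm38.p6 matched 25 of the 32 genes, in 33 entries. The 250 bases before each start were searched on both strands, and a base could count for more than 1 motif. GATAA was found in 24.2% of these entries and in 22.6% of all 32851 promoters, GGAAG (ETS) in 57.6% and 64.1%, CAGNTG (E-box) in 51.5% and 44.8%, and TGNGGT (RUNX) in 30.3% and 40.1%. RUNX letters were thus less frequent and E-box letters more frequent among these entries than among all promoters, differences that were not tested, and 3 or more of the 4 kinds were found in 21.2% and 20.3%. The stretches shown are those of Mllt3 and Gfi1b, as the members without overlap of lowest p in each direction that have an entry, and of Cbfa2t3, as the entry holding all 4 kinds. Capitals mark matches, and the start lies just after the last base.
Mllt3, chr4:88033408-88033657, minus strand: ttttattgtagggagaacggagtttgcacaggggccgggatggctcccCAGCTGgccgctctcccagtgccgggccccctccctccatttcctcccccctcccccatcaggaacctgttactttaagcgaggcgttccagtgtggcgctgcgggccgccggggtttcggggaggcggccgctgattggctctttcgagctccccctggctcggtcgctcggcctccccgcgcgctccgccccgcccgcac
Gfi1b, chr2:28621983-28622232, minus strand: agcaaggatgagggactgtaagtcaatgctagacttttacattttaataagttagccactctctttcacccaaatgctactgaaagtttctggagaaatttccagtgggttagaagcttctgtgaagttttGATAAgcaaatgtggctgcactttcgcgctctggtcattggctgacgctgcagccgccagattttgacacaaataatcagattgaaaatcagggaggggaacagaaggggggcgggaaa
Cbfa2t3, chr8:122699110-122699359, minus strand: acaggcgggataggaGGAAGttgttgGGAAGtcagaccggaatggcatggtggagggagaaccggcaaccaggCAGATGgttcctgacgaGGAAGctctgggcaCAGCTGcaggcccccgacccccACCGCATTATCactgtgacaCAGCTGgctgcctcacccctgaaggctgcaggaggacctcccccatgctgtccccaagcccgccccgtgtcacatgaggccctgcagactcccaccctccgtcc
The Mllt3 stretch, of the first of 2 starts, held 1 E-box and the Gfi1b stretch 1 GATA match. That of Cbfa2t3 held 3 ETS, 3 E-box, 1 GATA and 1 RUNX match. A match is a run of letters, not a bound site.

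Partners and neighbours of the 32 genes were listed apart from them. Over all genes tested in edgeR, 6.67% were higher and 7.63% lower at a p under 0.05 before adjustment. DESeq2 called 2.96% of all genes higher and 3.74% lower. The counts of these lists and of the cell markers below stand beside those shares. Of 26 tested partners of the SCL-LMO2 complex, RUNX1 and the ETS factors, 0 passed in edgeR (with p under 0.05 before adjustment for 1 higher and 2 lower), with 16 positive and a median log2 fold change of 0.13. DESeq2 called 1 of the list lower, Cbfa2t2, a relative of Cbfa2t3, at 78.7 ± 12.6 and 38.9 ± 4.68 CPM. The most abundant by the mean of all 6 libraries were Gata2 (435 ± 22.7 and 418 ± 53.6 CPM) and the LDB1-binding Ssbp2 (324 ± 32.2 and 290 ± 52.8 CPM), which did not pass. A list around the TIE2 and KIT receptors also held Slit, Robo, Cxcr4 and thrombin receptor genes. Of its 14 tested genes, 0 passed in edgeR (with p under 0.05 before adjustment for 2 higher and 0 lower). Fold changes were positive for 7, with a median of 0.03, and DESeq2 called 2 of the list higher. These were Socs2, a feedback inhibitor of cytokine signalling, at 59.6, 60.8 and 91.75 CPM in Control and 108, 136 and 141 CPM in IMP1 libraries, and the guidance ligand gene Slit2, which had 1, 1 and 0 reads in Control and 19, 219 and 113 reads in IMP1 libraries. By the mean of all 6 libraries, Kit and the thrombin receptor gene F2r (141 ± 31.1 and 109 ± 21.4 CPM) were the most abundant. Of 38 other published HSC genes 0 passed in edgeR (with p under 0.05 before adjustment for 9 higher and 5 lower), with 20 positive and a median of 0.06, and DESeq2 called Bmi1, Cdkn1c, Ifitm1, Txnip, Gimap6 and Socs2 higher and Vldlr, Cd9, Cd63 and Selp lower. Ifitm3 (1143 ± 105 and 1003 ± 11.3 CPM) and Adgrg1 (1117 ± 18.3 and 1004 ± 69.4 CPM) were the most abundant over all 6 libraries, while Ifitm1 (774 and 1128 CPM on average) led in IMP1 cells.

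Markers of other cells were measured to see what else the gate could hold. Of 14 genes of multipotent progenitors and early commitment, 12 were tested and 0 passed in edgeR (with p under 0.05 before adjustment for 1 higher and 4 lower). DESeq2 called 2 lower, Cd34 and Mpo, the latter at 25.3, 7.40 and 0.360 CPM in Control and 0.0314, 0 and 0 CPM in IMP1 libraries. Their summed level was 661 to 680 CPM in Control and 452 to 523 CPM in IMP1 libraries, with Prtn3 (258 ± 33.3 and 206 ± 7.30 CPM) and Cd34 the most abundant.

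Of 15 endothelial markers, 9 were tested and 0 passed in edgeR or DESeq2 (1 was higher at a p under 0.05 before adjustment), summed at 202 to 234 CPM in Control and 215 to 249 CPM in IMP1 libraries. Emcn (53.9 ± 28.2 and 65.8 ± 8.28 CPM) and Eng (57.9 ± 4.16 and 55.8 ± 1.88 CPM), both also known from HSCs, were the most abundant over all 6 libraries, with Pecam1 (54.4 and 35.8 CPM) and Egfl7 (44.9 and 68.7 CPM) near them, while Cdh5, Sox17 and Mmrn2 had 0 reads in every library. Cdh5 encodes VE-cadherin, an adhesion protein of endothelium. Other genes of the list had reads. Kdr had 145, 15 and 66 reads in Control and 58, 339 and 135 reads in IMP1 libraries. Sox18 had 94, 49 and 0 reads in Control and 26, 372 and 62 reads in IMP1 libraries. Cldn5, Flt1, Plvap, Stab1 and Stab2 had reads in some libraries only.

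Of 10 stromal markers 3 were tested, with Lepr (27.1 ± 3.74 and 27.8 ± 2.63 CPM) and Pdgfrb (2.79 ± 0.325 and 8.12 ± 1.45 CPM) the most abundant, sums of 26.8 to 38.7 and 35.4 to 41.5 CPM, and Col3a1, Pdgfra and Dcn at 0. Col1a2 had 145, 32 and 0 reads in Control and 6, 140 and 0 reads in IMP1 libraries. Cxcl12 had 130 reads in IMP1 3 and 0 in every other library, and Col1a1 and Lum had reads in some libraries only. DESeq2 called 1 stromal marker, Pdgfrb, higher. Of 10 megakaryocyte and platelet markers 9 were tested, all 9 with negative fold changes (median −0.38), and 0 passed in edgeR (with p under 0.05 before adjustment for 1 lower). Pf4 stood at 282 ± 139 and 192 ± 103 CPM, Gp6 was at 0, and the sums were 370.3 to 757 and 298 to 495 CPM. Itga2b, the platelet integrin subunit, stood at 129, 38.2 and 91.8 CPM in Control and 42.9, 26.2 and 41.9 CPM in IMP1 libraries, which overlap, and was called lower in DESeq2 alone (adjusted p = 0.0434, edgeR adjusted p = 0.2497). Vwf, a gene of platelets as well as HSCs, stood higher in 3 of 3 IMP1 libraries than in any Control library, and its difference from these markers was not tested. Erythroid markers (10 of 11 in the table, 6 tested) summed to 3392 to 4197 and 3858 to 5260 CPM, nearly all of it Car2 (3853 ± 454 and 4463 ± 671 CPM), followed by Tfrc (24.8 ± 12.2 and 59.9 ± 20.6 CPM).

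Markers of monocytes, macrophages and neutrophils (11 of 12 in the table, 7 tested) summed to 474 to 570.1 CPM in Control and 308 to 1030 CPM in IMP1 libraries. Lyz2 stood at 463 ± 45.9 and 288 ± 23.0 CPM, and S100a8, a neutrophil gene, at 9.47, 12.0 and 5.24 CPM in Control and 242.5, 171 and 11.4 CPM in IMP1 libraries. Mast cell and basophil markers (8 listed, 2 tested) summed to 36.1 to 45.0 and 2.45 to 14.7 CPM, with Cma1 and Gzmb at 0. Of these, Fcer1a stood at 34.7, 24.3 and 21.3 CPM in Control and 2.37, 0 and 0 CPM in IMP1 libraries, and Cpa3 at 12.0 ± 3.73 and 5.84 ± 7.74 CPM. Markers of B, T and NK cells (14 listed, 6 tested) summed to 94.0 to 103 and 111 to 165 CPM, with Cd79b (75.2 ± 8.92 and 88.0 ± 15.2 CPM) and Lck (16.0 ± 9.98 and 17.2 ± 3.57 CPM) the most abundant over all 6 libraries and Ms4a1, Pax5, Cd3g and Ncr1 at 0. The erythroid, myeloid, mast cell and lymphocyte lists held 0 genes that passed in edgeR's default test, with 2, 4, 0 and 1 genes higher and 0, 1, 1 and 0 lower at a p under 0.05 before adjustment. In DESeq2 Car1, Tfrc, S100a8, S100a9 and Klrb1c were called higher and Lyz2 lower. Car1, which was not tested in edgeR, had 0, 1 and 0 reads in Control and 9341, 3 and 754 reads in IMP1 libraries. S100a9 was uneven too, with 52, 113 and 31 reads in Control and 12013, 7328 and 245 reads in IMP1 libraries. Klrb1c, an NK cell receptor gene, stood at 2.37, 0.277 and 5.56 CPM in Control and 11.8, 34.1 and 13.9 CPM in IMP1 libraries. The B cell genes Cd79a and Ebf1 had 1170 and 986 reads in IMP1 2 and at most 6 reads in any other library. IMP1 2 is also the library that stood out for Fgd5, Vwf, Erg and Gfi1b, whose log2 fold changes without it were 0.57, 0.88, −0.70 and −0.49. The sums of the progenitor, mast cell and lymphocyte lists did not overlap between the groups, as those of the 32 stem cell genes did not. Nor did those of the TIE2 and KIT receptor list (940.3 to 1050 CPM in Control and 1066 to 1193 CPM in IMP1 libraries). Among single genes, 21.9% of all tested did not overlap. The part of the marker lists in the values of the 32 genes was not tested.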

How the data were processed

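RNA was measured in 6 libraries of sorted mouse LT-HSCs, 3 per genotype. The values are unnormalised counts of reads, 1 row for each Entrez gene, as deposited by the authors. TopHat2 2.0.10 and the genome build mm9 are named in the submitters' processing notes, while the counting program, its strand setting and its annotation are not given in the sources used here. RefSeq (GRCm38.p6) gave symbols for 21615 of 21761 identifiers, and the other 146 held 0.0645% of the counts. Libraries were compared with edgeR 4.0.16 (R 4.3.3), with filterByExpr, TMM scaling, the default quasi-likelihood test on genotype alone and Benjamini-Hochberg adjustment over all genes tested at a threshold of 0.05. Standard errors are the log2 fold change over the square root of F, and CPM use the TMM library sizes. TPM and the length and GC trend (loess, span 0.4) used the longest GENCODE M21 transcript of each gene. DESeq2 1.42.0, limma-voom (limma 3.58.1), other scalings and filters, thinning, a replicate block and leaving out each library were alternatives. The scripts were tested on simulated counts. There the edgeR test recovered 21.6% of the genes given a log2 change of 1 in either direction. It recovered 71.1% of those given a log2 change of 3. A member that did not pass is therefore not shown to be unchanged.

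Totals differ 2.26-fold between the groups, so a gene at the same level has more reads in IMP1 libraries. Whether low counts are more precise there was not tested. The labels mention no molecular identifiers, so that reads are not taken as independent molecules. No 2 libraries agreed within sampling noise, with a lowest chi-square per degree of freedom of 62.9. The members and gene lists were chosen with earlier results of these data known. All 32 members are named, with the sort gate genes, Igf2bp1, and of each other list the genes called in edgeR and the 2 most abundant by the mean of all 6 libraries. Other genes singled out, such as those called in DESeq2 or at 0, were chosen after their values were seen, unless they were the 2 most abundant of a list. A pair of genes was taken out of the lists and is not reported here.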

Additional observations from a re-analysis of the deposited data

How the results depend on the processing

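With edgeR 27 genes passed over the whole table. The count was 896 in DESeq2, 11 in limma-voom, 49 with legacy = FALSE, 16 without scaling, 58 under a strict filter (over 1 CPM in 3 libraries), 12 after removal of the length and GC trend, 231 at an adjusted p under 0.1, and 0 to 2 without 1 library; the cause was not tested. Members called numbered 0 in all of these except DESeq2, with 4. Without 1 library, 19 to 25 members were higher, their median was 0.12 to 0.27, and 9 to 13 (28.1% to 40.6%) had groups without overlap, as 31.3% to 32.9% of all genes did. The replicate numbers did not pair the samples (same-number correlations 0.0149, 0.031 and −0.00831, and not every library correlated best with its own number). With the replicate block 4 genes and 0 members passed.

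Of the 32 members, 20 had 1 sign in all 16 refits, and 36 of 512 values changed sign in the other 12. Values that changed sign were, on the log2 scale, Prdm16 −0.00 and Angpt1 −0.01 in limma-voom, Prdm16 −0.02 with legacy = FALSE, Angpt1 −0.00 with the replicate block, and without scaling Tal1 0.04, Lyl1 0.05, Cbfa2t3 0.02, Myct1 0.05, Gata2 0.04 and Eng 0.04. With the length and GC trend removed they were Slamf1 −0.08, Pdzk1ip1 0.09, Ly6a 0.01, Prdm16 −0.16, Etv6 −0.11, Eya1 −0.11, Lyl1 0.05, Angpt1 −0.18, Ifitm3 0.03 and Lepr −0.20.

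Without 1 library, Slamf1 ranged from −0.20 to 0.30, Ly6a from −0.31 to 0.14, Tal1 from −0.13 to 0.02, Gfi1 from −0.46 to 0.51, Prdm16 from −0.48 to 0.26, Etv6 from −0.05 to 0.15, Eya1 from −0.25 to 0.22, Lyl1 from −0.15 to 0.06, Angpt1 from −0.08 to 0.13 and Myct1 from −0.15 to 0.11. Outside the members, Cd48 ranged from −0.44 to 2.43, Gata2 from −0.16 to 0.02, Emcn from −0.06 to 0.71, Lepr from −0.07 to 0.13 and Lck from −0.18 to 0.75. Thinned to the smallest total, Robo4, with 58 reads in Control 2, stood at 0.74 against 0.73.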
